A study of Mus musculus with 12 samples.

Results

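The non-coding snoRNA host genes Gas5, Snhg1, Snhg3, Snhg5, Snhg6, Snhg8 and Snhg12 were taken by name from the deposited count table, where they make up 7 of 23420 genes. M-MDSCs, the monocytic myeloid-derived suppressor cells that can differentiate into osteoclasts, had been flow-sorted as CD11b+Ly6G-Ly6Chi cells from the bone marrow of male C57BL/6JNIA mice without treatment. The aged mice were 24 months old (n = 6) and the young mice were 6 months old (n = 6), and 1 library was sequenced for each mouse. The question asked of these genes was whether they differed between the ages, and whether they moved with the genes of the ribosomal proteins (Rpl for the large and Rps for the small subunit).

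Small nucleolar RNAs (snoRNAs) guide the methylation and the pseudouridylation of ribosomal RNA, and most mammalian snoRNAs are cut out of the introns of a longer host transcript. Some hosts encode ribosomal proteins or translation factors, and others carry no long reading frame, so that the snoRNA is their best understood product. The spliced RNA of several non-coding hosts starts with a run of pyrimidines like the mRNAs of the ribosomal proteins (a terminal oligopyrimidine, or TOP, start), is loaded on ribosomes and is then degraded by nonsense-mediated decay, which is why Gas5, named for growth arrest-specific transcript 5, accumulates when growth and translation stop.

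Gas5, the host of a string of box C/D snoRNAs, was counted over 4 exons with 2554 bases on chr1:161035166-161038537 of mm10 (plus strand). Snhg1, a second host of many box C/D snoRNAs, had 10 exons with 476 bases on chr19:8723487-8726326 (plus strand). The other rows were Snhg3 on chr4:132351933-132353686 (minus strand, 3 exons, 437 bases), Snhg5 on chr9:88521053-88522897 (minus strand, 5 exons, 1010 bases), Snhg6 on chr1:9942025-9944118 (minus strand, 4 exons, 407 bases), Snhg8 on chr3:123507552-123508336 (minus strand, 1 exon, 785 bases) and Snhg12 on chr4:132308678-132311024 (plus strand, 5 exons, 606 bases). GENCODE M21, an annotation of the same build (GRCm38), places 29 snoRNA transcripts inside these rows on the same strand. They carry 9 names in Gas5, 8 in Snhg1, 4 in Snhg12, 2 each in Snhg3 and Snhg5, and 1 each in Snhg6 and Snhg8. In the deposited annotation the first Gas5 exon runs through introns of the spliced form and contains 6 of its snoRNA transcripts, and the only exon of Snhg8 contains Snora24. Counts of these 2 rows can therefore include unspliced RNA.

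The snoRNAs below are shown because the deposited table holds a row of its own for each of them inside a host, which allowed host and snoRNA to be read side by side. The sequences are those of the GENCODE M21 transcripts, written as DNA from 5′ to 3′. The deposited rows of Snord47 (65 bases, 161038092 to 161038156) and Snora61 (62 bases, 132310307 to 132310368) are shorter than the transcripts shown. Their counts cover only that part. Capitals mark the letters TGATGA within the first 25 bases with CTGA within the last 20 bases (the C and D boxes of methylation guides), or ACA within the last 8 bases (the ACA box of pseudouridylation guides). Both boxes were found in 18 of the 29 transcripts inside the hosts (62.1%) and in 20.2% of all 1558 snoRNA and scaRNA transcripts of GENCODE. The ACA letters alone were found in 6 of the 29 (20.7%) and in 46.7% of all.
Snord47, in a Gas5 intron (chr1:161038082-161038158, plus strand): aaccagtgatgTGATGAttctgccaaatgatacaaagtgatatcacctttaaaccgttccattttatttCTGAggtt
Snord22, in a Snhg1 intron (chr19:8725866-8725991, plus strand, the pair of C and D boxes not found with these letters): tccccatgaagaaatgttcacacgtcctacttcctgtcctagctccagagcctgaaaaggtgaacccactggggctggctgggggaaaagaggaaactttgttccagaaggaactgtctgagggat
Snora24, inside the Snhg8 exon (chr3:123507937-123508066, minus strand): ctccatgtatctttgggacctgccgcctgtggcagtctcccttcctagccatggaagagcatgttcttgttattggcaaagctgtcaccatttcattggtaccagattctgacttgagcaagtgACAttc
Snora61, in a Snhg12 intron (chr4:132310240-132310369, plus strand): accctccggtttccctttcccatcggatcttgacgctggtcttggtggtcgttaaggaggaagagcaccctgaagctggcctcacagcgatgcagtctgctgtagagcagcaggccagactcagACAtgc

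The start sites are shown because the hosts are compared with the ribosomal protein genes, whose transcripts have TOP starts. The windows hold 20 bases on either side of the annotated start in the RefSeq promoter table (GRCm38.p6), on the transcribed strand. Capitals mark the longest run of C and T in each window. A run of at least 8 such bases was present in 16.05% of all 32851 promoter windows on the transcribed strand and in 17.7% on the other strand, in 29 of 68 windows of ribosomal protein genes (42.65%) and in 2 of 7 windows of the hosts.
Gas5 (chr1:161035146-161035185, plus strand, run of 6): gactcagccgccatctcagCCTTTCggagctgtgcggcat
Snhg1 (chr19:8723467-8723506, plus strand, run of 9): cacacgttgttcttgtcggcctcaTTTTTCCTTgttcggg
Snhg8 (chr3:123508317-123508356, minus strand, run of 7): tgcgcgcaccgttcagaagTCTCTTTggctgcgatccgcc
Snhg12 (chr4:132308658-132308697, plus strand, run of 9): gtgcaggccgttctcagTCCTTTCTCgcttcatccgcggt
Rpl13a, a ribosomal protein gene (chr7:45128726-45128765, minus strand, run of 14): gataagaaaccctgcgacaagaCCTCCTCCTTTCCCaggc
Rpl13a has a longer run than most ribosomal protein genes, and Rplp0 had a run of 7. The median longest run was 7 bases in the windows of the hosts, 7 in those of ribosomal protein genes and 5 in all windows. The windows of Snhg3 and Snhg5 had runs of 5 and 7, and a second Gas5 entry of the table, 565 bases from the start of the deposited row, had a run of 3. Snhg6 was not matched in the table. The letters CACGTG, which read the same on both strands and are bound by Myc and related factors, occurred in 0 of the 7 host windows of 300 bases, in 8 of 68 windows of ribosomal protein genes (11.8%) and in 7.15% of all windows.

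The libraries of aged mice held 8737941 to 16300374 counted fragments, those of young mice 4613239 to 9079237, and 9742 genes passed the filter on low counts and were tested. Young mice 5 and 6 stood apart, with the highest scaling factors (1.10 and 1.08, against 0.919 to 1.02 in the other mice) and the lowest share of counts on ribosomal protein genes (0.222% and 0.2235%, against 0.307% to 0.363% in the other young mice), so the calls of the hosts and of the ribosomal protein genes are also given without them. The other young mice also lay in pairs on this share. Mice 1 and 2 were at 0.3067% and 0.3065%, and mice 9 and 10 at 0.3627% and 0.358%. The tests treat the 6 young mice as independent, and whether mice of such a pair shared their handling was not tested. In the alignment file names, every young mouse has a lower sample number than any aged mouse, and a batch that followed them cannot be told apart from age. Across genes, shorter rows tended to be higher in aged mice (Spearman's rho of exon length with log2 fold change = -0.48 over the genes tested, which are not independent replicates). Of the sorted type's own markers, Ly6c2 was at 726 ± 74.5 CPM (counts per 1000000 of the normalized library total; SD, n = 6) in aged and 499.6 ± 99.9 in young mice and Ccr2 at 31.2 ± 22.2 and 37.1 ± 14.3, whereas the 7 neutrophil granule and alarmin genes listed (S100a8, S100a9, Ltf, Camp, Ngp, Retnlg and Mmp8) summed to 118000 to 140770 CPM in aged and 75407 to 118380 in young mice. These genes of another cell type lay far above Ly6c2 and Ccr2, and the purity of the sorted cells was not tested. Differences given below are those of the sorted cells as sequenced. In bulk RNA, fewer cells of a type and less RNA per cell cannot be told apart.

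Gas5 and Snhg1 were lower in the sorted cells of aged than of young mice. Snhg8 was lower by a smaller margin, and Snhg3, Snhg5 and Snhg12 did not pass the test. Of the 6 hosts that could be tested, 3 were called lower and 0 higher, with a median log2 fold change of -0.53, against a median of 0.01 over all genes tested. The call (edgeR's quasi-likelihood test, Benjamini-Hochberg adjusted p under 0.05 over all genes tested) was reached by 45.4% of all genes, 22.4% higher and 23.0% lower in aged mice. DESeq2 made the same 3 calls lower and 0 higher, and 0 hosts had an unadjusted edgeR p under 0.05 in the higher direction. The values of all 7 hosts overlapped between the ages, whereas 12.1% of all genes tested lay lower and 9.68% higher in every aged mouse than in any young mouse. With 6 genes and a background of 23.0%, the 3 calls describe these hosts and do not set them apart from other genes.

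Gas5 was at 10.5 CPM in the lowest aged mouse, 13.7 at the median and 17.3 in the highest, and at 15.4, 20.8 and 29.0 CPM in young mice. In 4 of 6 aged mice it lay below every young mouse, and the remaining aged mice overlapped the 2 lowest young mice. The means were 13.8 ± 3.01 CPM in aged and 21.6 ± 5.59 in young mice (SD, n = 6 each), a fitted log2 fold change of -0.67 (SE 0.176; edgeR adjusted p = 0.00648). Gas5 had 114 to 168 counts in each aged and 72 to 285 in each young library, more than any other host here. Young mice 5 and 6 had its highest values, 26.6 and 29.0 CPM, and without both of them the difference was -0.46 (adjusted p = 0.0491).

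Snhg1 was at 0.646, 1.04 and 2.45 CPM in the lowest, median and highest aged mouse and at 2.31, 3.08 and 4.27 CPM in young mice. Of the aged mice, 5 of 6 lay below every young mouse, and aged mouse 1 lay above the lowest young mouse. With means of 1.21 ± 0.647 CPM in aged and 3.25 ± 0.761 in young mice (SD, n = 6 each), it had the largest difference of the hosts, a log2 fold change of -1.45 (SE 0.289; edgeR adjusted p = 0.00119). These values rest on 7 to 22 counts in each aged and 13 to 42 in each young library, so the counting error of a single mouse is large. Without young mice 5 and 6 the log2 fold change was -1.23 (adjusted p = 0.0135).

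Snhg8, which carries the pseudouridylation guide Snora24, was at 4.32, 5.92 and 8.57 CPM in the lowest, median and highest aged mouse and at 7.41, 7.996 and 11.2 CPM in young mice. In 4 of 6 aged mice it lay below every young mouse, but only 2 young mice lay above every aged mouse. The means of 6.11 ± 1.72 and 8.86 ± 1.70 CPM (SD, n = 6 each) gave a log2 fold change of -0.56 (SE 0.186; edgeR adjusted p = 0.0224). The call was lost without young mice 5 and 6 (-0.52, adjusted p = 0.0715) and without aged mouse 6, young mouse 6 or young mouse 10 singly (adjusted p = 0.0523, 0.0603 and 0.0528).

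**Figure D1:**
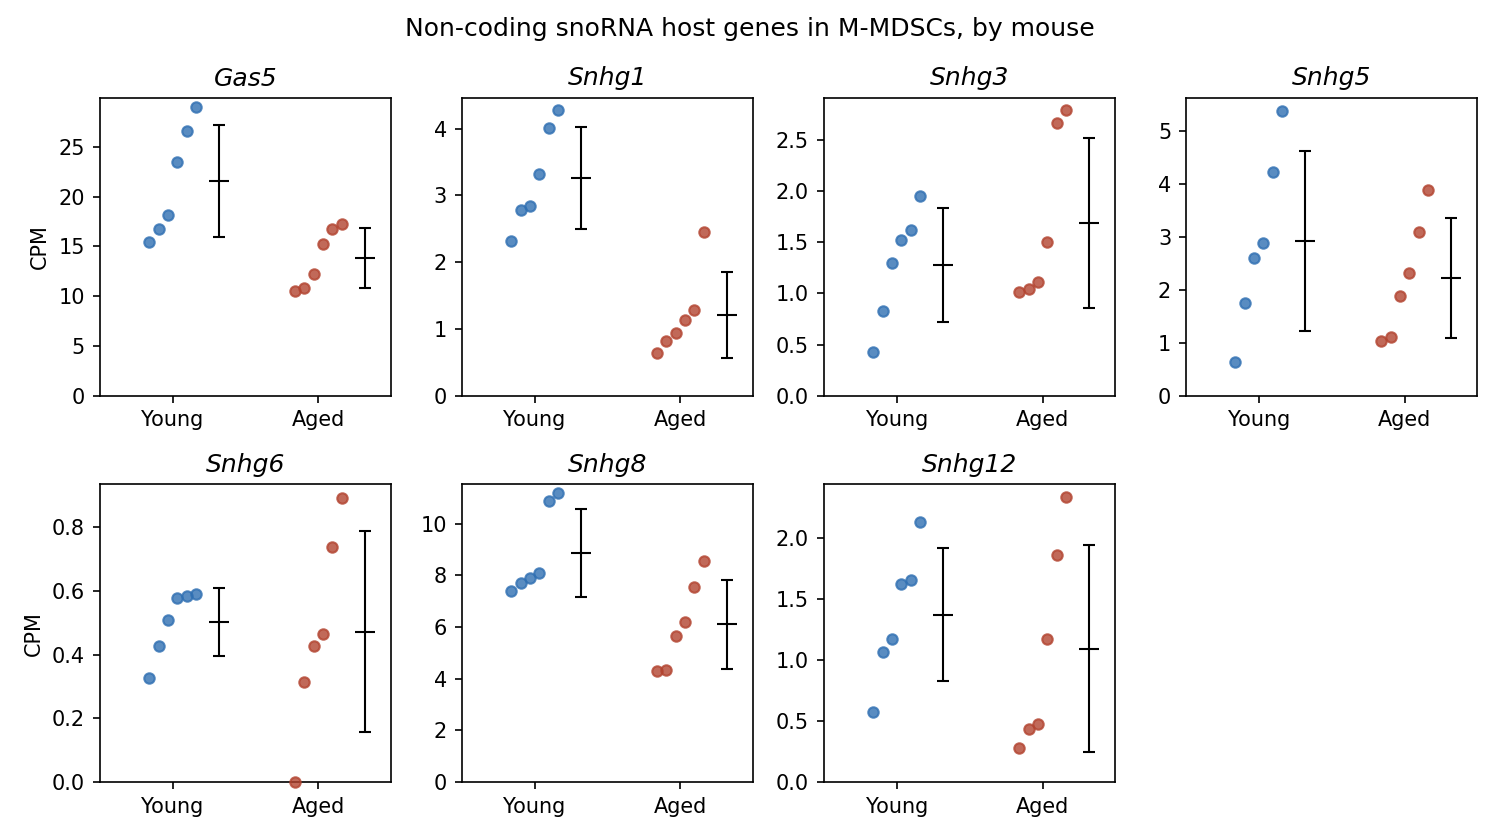
Level of each non-coding snoRNA host gene in CPM of the TMM-normalized total, with 1 point per mouse and the mean ± SD beside the points (n = 6 young and 6 aged mice; each panel has its own axis from 0). The aged mice of Gas5, Snhg1 and Snhg8 sit mostly below the young mice, with aged mouse 1 the highest aged value of Snhg1 at 2.45 CPM, and the other hosts overlap widely.

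Snhg5, the host of the paired methylation guides Snord50a and Snord50b, ranged from 1.04 to 3.90 CPM in aged and from 0.642 to 5.39 in young mice. Its means of 2.22 ± 1.13 and 2.92 ± 1.70 CPM (SD, n = 6 each) differed by a log2 fold change of -0.49 (SE 0.395; edgeR adjusted p = 0.329). The aged values lay inside the young range, and without young mice 5 and 6 the sign turned, to 0.057 (adjusted p = 0.932).

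Snhg12, which carries Snora16a, Snora44, Snora61 and Snord99, ranged from 0.277 to 2.34 CPM in aged and from 0.577 to 2.14 in young mice. The log2 fold change was -0.44 (SE 0.475; edgeR adjusted p = 0.469), with 3 of 6 aged mice below every young mouse and aged mouse 1 above every young mouse. Without young mice 5 and 6 it was -0.12. Its 3 to 21 counts per library set a wide error on this value.

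Snhg3, the host of the abundant rRNA-processing snoRNAs Snora73a and Snora73b, was the only tested host with a positive log2 fold change, 0.36 (SE 0.353; edgeR adjusted p = 0.424). It was at 1.02 to 2.79 CPM in aged and 0.428 to 1.95 in young mice, and aged mice 2 and 4, at 2.79 and 2.67 CPM, were the 2 that lay above every young mouse. The other 4 aged mice lay inside the young range. Without young mice 5 and 6 the log2 fold change was 0.43. With the trend against exon length removed, its sign turned, to -0.28 (edgeR adjusted p = 0.595).

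Snhg6, the host of Snord87, had 29 counts in all aged and 23 in all young libraries together and did not pass the filter on low counts. It was at 0 to 0.891 CPM in aged and 0.325 to 0.591 in young mice. In aged mouse 6 it had 0 counts, which allows a level of up to 0.284 CPM (3 counts, for counting error only). Fitted without the filter, its log2 fold change was -0.12 (SE 0.538; edgeR adjusted p = 0.878), in a fit that called 28.2% of its 15827 genes. A difference of the size of that of Gas5 was not detectable at this depth.

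Per kilobase of exon (CPM per kb), the order of the hosts in young mice was Snhg8 at 11.3 ± 2.16 (SD, n = 6), Gas5 at 8.44 ± 2.19, Snhg1 at 6.84 ± 1.6, Snhg3 at 2.92 ± 1.28, Snhg5 at 2.89 ± 1.68, Snhg12 at 2.26 ± 0.901 and Snhg6 at 1.23 ± 0.263. In aged mice it was Snhg8 at 7.78 ± 2.19, Gas5 at 5.40 ± 1.18, Snhg3 at 3.86 ± 1.89, Snhg1 at 2.54 ± 1.36, Snhg5 at 2.20 ± 1.11, Snhg12 at 1.80 ± 1.41 and Snhg6 at 1.16 ± 0.774. Snhg8 lay above Gas5 in 5 of 6 young and 6 of 6 aged mice, and Snhg1 lay above Snhg3 in 6 of 6 young mice, by 3.92 ± 1.75 CPM per kb. In aged mice Snhg1 lay below Snhg3 in 5 of 6 animals, by 1.32 ± 2.53, a difference smaller than its spread over mice. The steps from Snhg3 to Snhg5 in young mice and from Snhg5 to Snhg12 in both ages were also smaller than their spread, as were those from Gas5 to Snhg3, Snhg1 to Snhg5 and Snhg12 to Snhg6 in aged mice. The length of the Gas5 row includes intron sequence, so its level per kilobase of the spliced form is not given by this value.

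The ribosomal protein genes went the other way. Of 75 tested, 74 were called higher in aged mice and 0 lower, against 22.4% of all genes called higher, with a median log2 fold change of 0.88. With the trend against exon length removed 61 were higher and 1 lower (median 0.43), and without young mice 5 and 6 71 were higher (median 0.63). All 44 tested Rpl genes were higher (median 0.87), from Rpl17 at 0.40 and Rpl7a at 0.41 to Rpl15 at 1.34 and Rpl36a at 1.35. Of 31 tested Rps genes 30 were higher (median 0.90), with the largest rise for Rps24 at 1.17, and Rps27 was at -0.23 (edgeR adjusted p = 0.378). Rpl26, Rpl30 and Rpl34 had too few counts for a test, Rpl26 with 0 in every library. Many ribosomal protein genes have near-identical copies elsewhere in the genome, and the mapping quality that the authors required can remove their fragments, so levels of single genes are uncertain. Together these genes took 0.433% to 0.551% of all counts in the aged libraries, above the 0.222% to 0.363% of the young libraries.

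**Figure D2:**
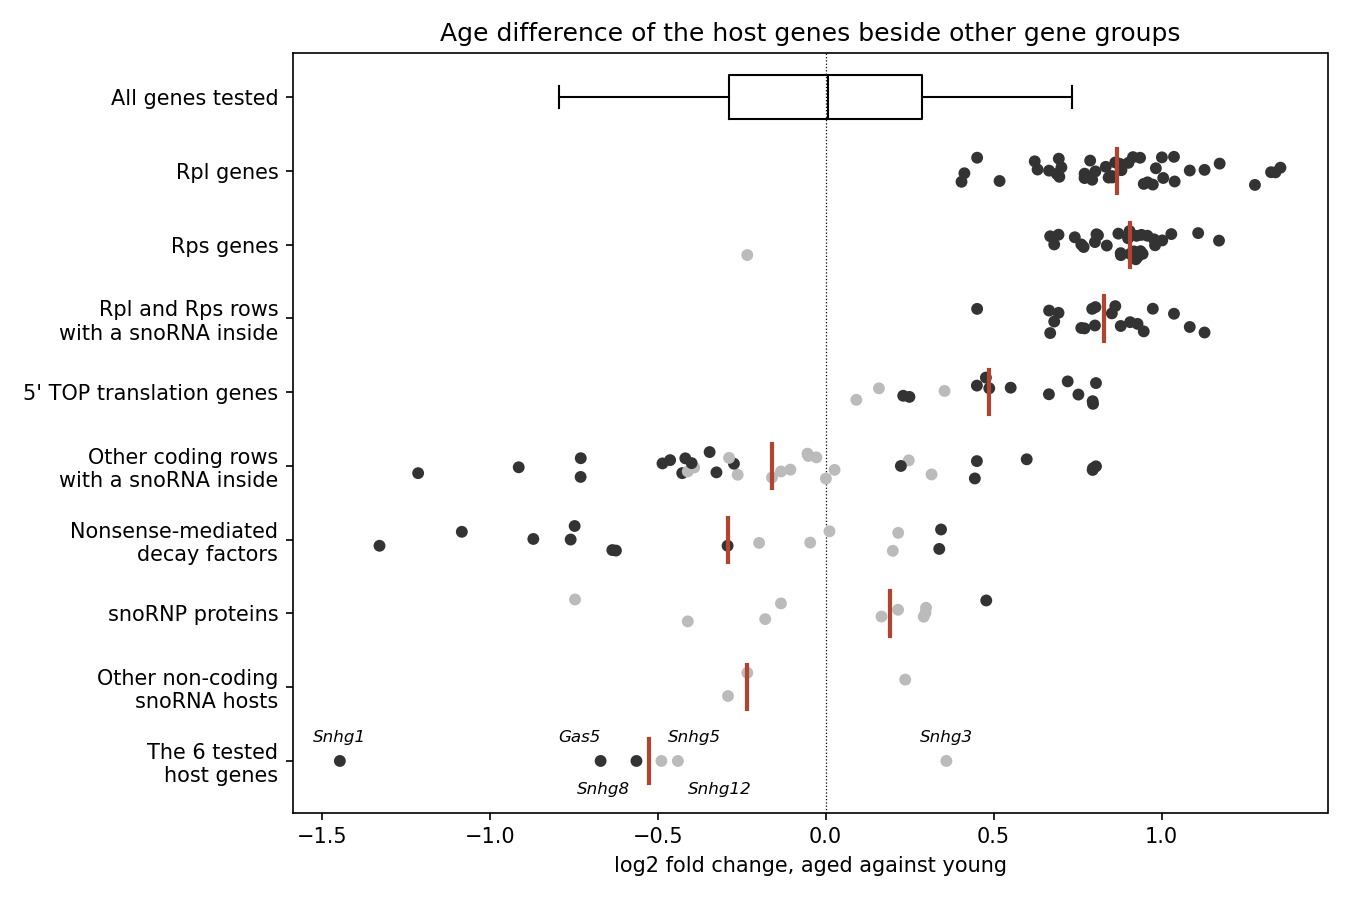
log2 fold change, aged against young mice, for the genes of each group that were tested (1 point per gene, dark where called at adjusted p under 0.05, red bar at the group's median; the box for all genes shows the quartiles and the whiskers the 5th and 95th percentiles). The 6 tested non-coding hosts have a median of -0.53 and the Rpl and Rps genes medians of 0.87 and 0.90.

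Set directly against the ribosomal protein genes, 3 of the 7 hosts were lower in every aged than in any young mouse. Gas5 had 2.03 to 3.20 counts per 1000 Rpl and Rps counts in aged mice, against 4.99 to 14.04 in the young. Snhg8 had 0.817 to 1.59 in aged and 2.23 to 5.42 in young mice, and Snhg1 had 0.126 to 0.454 in aged and 0.636 to 2.07 in young mice. These 3 ratios did not overlap between the ages, as was the case, with the aged mice lower, for 56.8% of all genes tested. The ratios of Snhg3, Snhg5, Snhg6 and Snhg12 overlapped, with Snhg3 at 0.195 to 0.511 in aged and 0.141 to 0.739 in young mice. With each library scaled to the mean level of the tested ribosomal protein genes in place of TMM, the log2 fold change was -2.44 for Snhg1 (SE 0.373; edgeR adjusted p = 3.0e-05), -1.67 for Gas5 (SE 0.266; adjusted p = 3.8e-05), -1.52 for Snhg8 (SE 0.242; adjusted p = 3.9e-05), -1.51 for Snhg5 (SE 0.456; adjusted p = 0.00529) and -1.42 for Snhg12 (SE 0.498; adjusted p = 0.0129). Snhg3 did not pass (-0.57, adjusted p = 0.180). The call of Snhg12 on this scale was kept in 11 of 12 fits that left out a mouse (largest edgeR adjusted p = 0.0547).

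On that scale, however, 85.3% of all genes tested were lower and 0.585% higher in aged mice, and the median of all genes was -0.94, so that 5 of 6 hosts called lower is near the background. The medians were -1.51 for the hosts and 0.02 for the ribosomal protein genes. Without young mice 5 and 6, whose ribosomal protein share was the lowest, 3 of the 6 hosts were called on this scale, Gas5 at -1.09, Snhg1 at -1.86 and Snhg8 at -1.15, whereas Snhg5 (-0.54) and Snhg12 (-0.75) were not. The share of all genes called in that fit is not given here, so these 3 calls do not set the hosts apart from other genes.

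**Figure D3:**
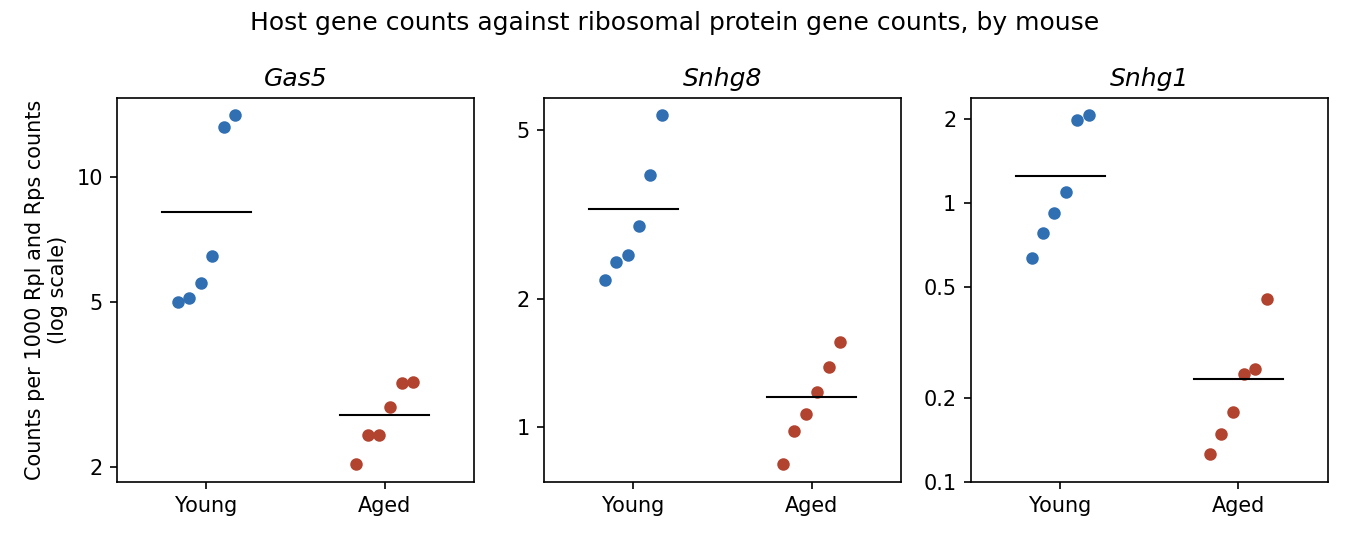
Counts of Gas5, Snhg8 and Snhg1 per 1000 counts on Rpl and Rps genes (log axis), with 1 point per mouse and a line at the mean of each age (n = 6 each). Every aged mouse lies below every young mouse in each panel, from 2.03 to 3.20 against 4.99 to 14.04 for Gas5, and the 2 highest young points are mice 5 and 6.

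Among hosts that encode proteins, the 20 ribosomal protein genes with a snoRNA row inside were called higher in 20 of 20 cases (22.4% of all genes were), with a median log2 fold change of 0.83, from Rpl4 at 0.45 to Rpl12 at 1.13. A list of translation genes known for TOP starts, only some of which are snoRNA hosts, was higher for 12 of 15 tested and lower for 0 (median 0.49). They included Eef1a1, which delivers tRNA to the ribosome, at 0.75 and Tpt1 at 0.80. Of 33 tested hosts that encode other proteins, 7 were higher, a share near that of all genes, and 12 lower, against 23.0% of all genes (median -0.16). Eef1b2, Eef2, Gnb2l1 and Tpt1, 4 of the 7 higher, also stand in the list of translation genes. Rack1 (listed as Gnb2l1), a scaffold on the small ribosomal subunit, was among the higher at 0.79 and the RNA helicase Eif4a2 among the lower at -0.91 (edgeR adjusted p = 2.5e-05). The groups overlapped in value and differed in size, and the difference between them was not tested.

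Of 14 further rows of non-coding hosts, 3 had enough counts for a test and 0 were called by edgeR, by DESeq2 or at an unadjusted edgeR p under 0.05. Of all genes, edgeR called 45.4% in either direction, and with 3 genes tested the absence of calls says little. Zfas1 was at 2.79 ± 0.738 CPM in aged and 3.25 ± 0.682 in young mice (log2 fold change -0.23), Snhg7 at 1.98 ± 0.294 and 2.37 ± 0.816 (-0.29), and 2410006H16Rik at 6.85 ± 1.38 and 5.85 ± 1.58 (0.24), with adjusted p from 0.326 to 0.411. Dancr, Snhg4, Snhg9, Snhg16 and Snhg17 were among the 11 rows with too few counts.

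Of 10 tested genes for snoRNP proteins and their assembly factors, 1 was called (45.4% of all genes were called in either direction), the assembly factor Pih1d1 at 0.48 (edgeR adjusted p = 0.00214), and the median was 0.19. Nop56 and Nop58, which encode core proteins of box C/D particles and are themselves snoRNA hosts, were at -0.41 (adjusted p = 0.0962) and -0.13 (0.551), and Dkc1, for the pseudouridine synthase of box H/ACA particles, was at -0.75 (SE 0.353; 0.0963), a value as large as that of Gas5 with a wider error.

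Among the factors of nonsense-mediated decay, which degrades spliced host RNA, 8 of 15 tested were lower in aged mice and 2 higher (median log2 fold change -0.29), against 23.0% of all genes called lower and 22.4% higher. The helicase Upf1 was at 61.4 ± 4.29 CPM in aged and 94.3 ± 22.4 in young mice (-0.62), Upf2 at -0.76 (edgeR adjusted p = 5.66e-06), Upf3b at -1.33 and the kinase Smg1 at -1.08. The 2 higher genes were the exon junction proteins Magoh and Eif4a3, both at 0.34.

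Of the growth regulators listed, 3 of 18 tested were higher and 6 lower, against 22.4% and 23.0% of all genes. The growth kinase Mtor was at -0.38, its target Rps6kb1 at -0.83 (edgeR adjusted p = 5.8e-05) and Larp1, which binds TOP mRNAs, at -0.45, whereas the translation repressor Eif4ebp1 was at 0.60. Myc had 49 counts in all libraries and was not tested. Proliferation genes were called lower for 3 of 18, with Mki67 at 98.8 ± 39.2 CPM in aged and 398 ± 188 in young mice (-2.01), Top2a at -0.62 and Bub1 at -0.53, and higher for 0. That share lies below the 23.0% of all genes called lower, and the other 15, among them the cyclin gene Ccnb1 at 0.17, were not called.

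Markers of other cells also moved with age. All 6 markers of resident macrophages were higher in aged mice, as were 22.4% of all genes (median log2 fold change of the markers 2.87), with a summed level of 66.4 to 717 CPM against 53.9 to 72.2 in young mice. Also higher were 5 of 7 neutrophil genes and the 3 tested of 4 promyelocyte genes, Elane, Mpo and Prtn3 (9.04 to 16.5 CPM summed over the list, against 3.12 to 8.45). The 7 monocyte markers summed to 3425 to 4566 CPM in aged and 4058 to 4278 in young mice, with Ly6c2 higher and Itgam lower. Of the B, plasma, T and NK cell markers 4 of 12 were tested and 0 called by edgeR, although 2 had an unadjusted p under 0.05 and DESeq2 called 1 of them higher, and 1 of 3 dendritic cell markers was tested and was lower (Clec9a, -2.45). Erythroid markers had too few counts for a test, summing to at most 7.68 CPM in aged and 0.428 in young mice, with Hba-a1 at 0 in every library. The part of these markers in the differences of the hosts was not tested.

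The deposited rows of snoRNAs inside the hosts held few counts, and none passed the filter. Snord47 in Gas5 had 23 counts in all aged and 29 in all young libraries, Snord22 in Snhg1 had 59 and 26, and Snora44, Snora16a and Snora61 in Snhg12 had 28 and 6, 17 and 7, and 11 and 5. Fitted without the filter, Snord22 was at a log2 fold change of 0.70 (SE 0.411; edgeR adjusted p = 0.218), opposite in sign to its host at -1.45, whereas Snord47 was at -0.78 (SE 0.603; adjusted p = 0.345), the same sign as Gas5. In Snhg12, at -0.42 in the same fit, Snora44 was at 1.64 (SE 0.762; adjusted p = 0.121), Snora16a at 0.79, Snora61 at 0.69 and Snord99, with 7 counts in all, at 0.68. Snord87 in Snhg6 had 1 count in all, too few for a fold change. Of the 8 rows 7 had counts and 0 were called in that fit, which called 28.2% of its 15827 genes. Snora44 alone had an unadjusted edgeR p under 0.05, at 0.045. Snora24 and Mir5117 had 0, and both lie inside an exon of their host row, where a fragment that overlaps both rows is assigned to neither. The libraries were not made for small RNA, and these rows do not measure mature snoRNAs as such.

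Among all 117 snoRNA and scaRNA rows of the table, 13 were tested, of which 7 were higher and 2 lower in aged mice (median log2 fold change 0.68), against 22.4% and 23.0% of all genes. Snora74a was at 1.93 (edgeR adjusted p = 0.0132), Snord17 at 1.68 (adjusted p = 0.000937) and Scarna13 at 1.48 (adjusted p = 0.00235), and Snora31 at -1.13 and Snora81 at -0.66 were lower. None of the 13 lies inside the 7 hosts. Their median length was 121 bases, against 2890 over all genes tested. Shorter rows tended to be higher in aged mice, so the shares of all genes are an unlike background here. These rows, too, do not measure mature snoRNAs as such.

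Genes next to the hosts were measured in the same table. Zbtb37, which lies 906 bases from Gas5 on the opposite strand and encodes a zinc finger protein, was at 12.9 ± 1.38 CPM in aged and 18.5 ± 2.64 in young mice, without overlap (12.1% of all genes tested lay lower in every aged mouse), a log2 fold change of -0.53 (edgeR adjusted p = 0.00155) beside -0.67 for Gas5. Slc3a2, the heavy chain of amino acid transporters, lies 117 bases from Snhg1 on the opposite strand and was at 0.22 (adjusted p = 0.0441), opposite in sign to Snhg1. Beside Snhg6, Mcmdc2 at 1070 bases was at -1.80 (adjusted p = 0.00100) and Ppp1r42 at 24507 bases was at -0.81. Phactr4, 2238 bases from Snhg3, was at -0.34 and Rcc1, the exchange factor of Ran, was at -0.33 on the other side (adjusted p = 0.134). Syncrip and Zfp949 around Snhg5 were at -0.22 and -0.43, and Trnau1ap beside Snhg12 was at 0.40 (adjusted p = 0.227). Wdr74, 9512 bases from Snhg1, was at 0.07, and Prss12 and Ndst3 around Snhg8 and Rab42 beside Snhg12 had 1 to 3 counts in all. Counting was by strand, so reads from opposite strands were kept apart.

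How the hosts varied between mice of one age was described by the correlation of their log2 CPM over the 12 mice after the mean of each age was subtracted. Gas5 went with Snhg5 (Pearson's r = 0.86), Snhg12 (0.77) and Snhg8 (0.74), and Snhg8 with Snhg12 (0.73), whereas Snhg1 and Snhg3 were at 0.05. Values of one mouse share its library and depth, and with low counts the weaker correlations say little. Gas5 made up a steady share of the summed counts of the 7 hosts, 52.6% ± 3.91 in aged and 54.1% ± 2.27 in young mice (SD, n = 6 each), while their sum ranged from 18.6 to 36.5 CPM in aged and from 28.5 to 54.0 in young mice. The tested genes most like each host over the same 12 mice were Pkig, Plk3 and Snapc4 for Gas5 (r = 0.94, 0.90 and 0.90), St6galnac6, Mllt6 and Ppp1r13b for Snhg1 (0.94, 0.91 and 0.90), Nagk, Notch1 and Lsg1 for Snhg3 (0.85, 0.84 and 0.84), Cdpf1 and Umps for Snhg5 (both 0.92), Slc22a5, Nans and Uck1 for Snhg8 (0.90, 0.86 and 0.85) and Fasn, Tppp and Surf2 for Snhg12 (0.94, 0.91 and 0.89). For Snhg6, Uxt, Pgm2 and Mrpl19 were at 0.80, 0.79 and 0.79. These are the highest of 9736 correlations for each host and carry no test.

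The same correlation was taken between each host and the 75 tested ribosomal protein genes. For Gas5 the median r over these genes was -0.30 over all 12 mice, 0.58 in the 6 aged and -0.62 in the 6 young mice. In the same order Snhg12 gave -0.10, 0.58 and -0.63, Snhg1 gave -0.34, 0.21 and -0.88, Snhg5 gave -0.31, 0.37 and -0.49, Snhg3 gave -0.11, 0.19 and -0.21, and Snhg8 gave 0.10, 0.50 and -0.12. Snhg6, with the fewest counts, went the other way in young mice, at 0.19, 0.15 and 0.64. Over all 9736 genes the median r with Gas5 was -0.013 in all 12, -0.002 in the aged and -0.030 in the young mice. Single ribosomal protein genes ranged from -0.88 to 0.74 with Gas5 in young mice. The 75 genes are not independent replicates, and the difference between the ages was not tested. Young mice 5 and 6 had the highest Gas5 and the lowest ribosomal protein share, and their part in the young values was not tested. Each value is a description over mice that share library and depth across genes.

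**Figure D4:**
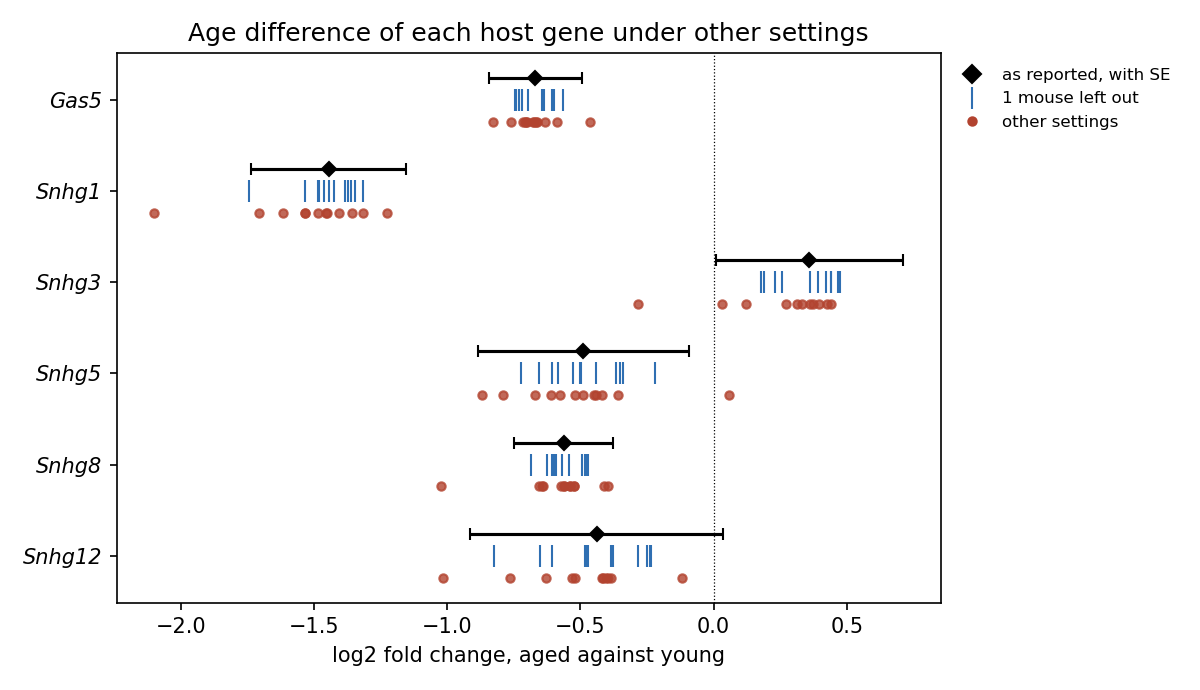
log2 fold change of each tested host, aged against young mice, as reported (diamond, with its SE), with 1 mouse left out at a time (blue ticks, 12 values) and under the other settings tried (red points). Gas5, Snhg1 and Snhg8 stay below 0 throughout, whereas Snhg3 and Snhg5 cross it, at -0.28 and 0.057.

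The differences of Gas5 and Snhg1 were called in 12 of 12 fits that left out a mouse, with log2 fold changes of -0.75 to -0.57 for Gas5 and -1.75 to -1.32 for Snhg1, and that of Snhg8 in 9 of 12 (-0.69 to -0.47). With the trend of the counts against exon length removed in each library, the hosts, whose rows are shorter than the median of 2890 bases, moved further down, to -2.10 for Snhg1, -1.03 for Snhg8 and -0.70 for Gas5.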

How the data were processed

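Total RNA of M-MDSCs from 12 mice was sequenced by the authors in pairs on a NovaSeq instrument from stranded libraries. The deposited counts are whole fragments per gene, without normalization, which per the file headers were made with featureCounts 2.0.0 over exons of a UCSC mm10 annotation, by strand, with both ends aligned and a minimum mapping quality of 60, by an aligner that is not given in the sources used here. Groups were read from the sample titles and ages in months from the time given in the labels, and no column was left out.

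Counts were fitted with edgeR 4.0.16 (R 4.3.3, filterByExpr, TMM, quasi-likelihood test, age as the only factor), and p-values of the 9742 tested genes were adjusted together by Benjamini-Hochberg, with calls made under 0.05. The study's methods name DESeq2, used here in version 1.42.0 as an alternative. A second fit scaled libraries to the tested ribosomal protein genes. Other alternatives were limma-voom (limma 3.58.1), other scalings and filters, removal of trends with length or GC content, thinning, leaving out mice and a replicate block. The script was tested on simulated data. Replicates of one age differed by more than sampling noise. The biological coefficient of variation was 15.7%, and counting error dominates in hosts of few counts.

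The 7 hosts and all gene lists were chosen with earlier results of these data known. Besides the hosts, the genes named are the largest rise, largest fall and smallest p of a list, list members that were few and not called, neighbours by coordinates and up to 3 genes most like each host. Some genes under this rule are not reported here. Further list members, such as Rack1, Tpt1, Upf1, Mtor, Rpl4 and the listed snoRNA rows, were chosen after their values were seen. List symbols missing from the table were matched through RefSeq synonyms.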

Additional observations from a re-analysis of the deposited data

Results flagged for a closer look

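Snhg1 in aged mouse 1 was at 2.45 CPM, and the gap to the next aged mouse was large against the range of the 6 aged mice (0.646 to 1.28 CPM in the other 5). It was the only sample that stood apart in this way among the 14 groups of 6 mice looked at, 7 hosts in each age, and chance gives about 1 such sample in 20 groups. Without this mouse the log2 fold change of Snhg1 was -1.75.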

How the results depend on the processing

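The number of hosts called higher was 0 in all alternatives run, and the number called lower was 2 or 3 in all but one. In the 8 mice whose replicate numbers occur in both ages (1, 2, 5 and 6), a replicate block left 1 host called lower and 3 called lower relative to ribosomal protein genes, with Gas5 at -0.68 (adjusted p = 0.0836) and Snhg8 at -0.41, against 2 and 6 hosts in the same 8 mice without the block. Deviations of same-numbered mice correlated at -0.25 to -0.07. No mice of unlike number were set beside them, so these values cannot settle whether the numbers pair the mice. The labels give the numbers no shared origin. With at least 10 counts in every mouse, 2 hosts were tested and called lower relative to ribosomal protein genes. Removing the length trend turned Snhg3 to -0.28 and made 1 ribosomal protein gene lower. Leaving out young mice 5 and 6, chosen after seeing the data, gave 3 hosts lower relative to ribosomal protein genes, turned Snhg5 to 0.057 and left 1392 genes higher in aged mice, against 2185. Removal of the GC trend, from GENCODE transcripts since no genome sequence was used here, was also added after seeing the data and changed no call of a host. Leaving out young mice 1 and 2 instead, also added after seeing the data, kept the calls of Gas5, Snhg1 and Snhg8 (edgeR adjusted p = 0.00285, 0.00467 and 0.0238). The share of all genes called relative to ribosomal protein genes in these alternatives is not given here. The cause of the changes under other settings was not tested. The median of the ribosomal protein genes stayed between 0.43 and 1.16. Snhg6 had too few counts for a test, and Snhg1, Snhg3, Snhg5 and Snhg12 had 60 to 153 counts over the 6 mice of an age.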
